A study of Mus musculus with 10 samples.

Results

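Expression of 9 genes that mark disease-associated microglia was examined in RNA from brain microglia: Spp1, Igf1, Lgals3, Lyz2, Clec7a, Gpnmb, Cd9, Cd63 and Fabp5. They were taken by gene symbol from a list that was set with earlier results of these data known, and are 9 of the 24421 symbols counted. All 9 passed the filter on low counts, as did 18727 symbols in all. The study compared 3 groups of mice aged 9 months: wild-type (WT) mice with 3 libraries, APP/PS1 mice with 4 libraries and APP/PS1 mice given N-acetyl sphingosine (APP/PS1+N-AS) with 3 libraries. APP/PS1 mice overexpress human APP with the Swedish mutation and human PS1 with the M146V mutation, and they model amyloid deposition rather than the whole disease. N-AS was given subcutaneously at 30 mg/kg every day for 8 weeks, starting at 7 months of age; the study describes the other APP/PS1 mice as vehicle treated, while their labels name no injection. Cells came from papain-digested cortex on a density gradient, and 2 mice were pooled per library, so the library is the replicate. Levels are given as CPM, read counts divided by library size after TMM scaling, which corrects library sizes for differences in composition.

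Microglia are the resident macrophages of the brain. Near amyloid plaques they pass into a state known as disease-associated microglia, whose full form depends on the receptor Trem2 and its adaptor Tyrobp. In this state genes of phagocytosis, lysosomes and lipid handling are described as high and homeostatic genes as low. The 9 genes cover several roles in this state. Spp1 (osteopontin, a ligand of integrins and Cd44), Igf1 (insulin-like growth factor 1), Lyz2 (lysozyme M) and Lgals3 (galectin-3, a lectin that binds β-galactosides) encode secreted proteins. Clec7a (dectin-1, a C-type lectin receptor for β-glucans) and Gpnmb (a transmembrane glycoprotein of phagosomes and lysosomes) encode membrane glycoproteins, Cd9 and Cd63 encode tetraspanins, of which Cd63 sits in late endosomes, and Fabp5 encodes a cytosolic carrier of fatty acids.

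The genes lie on chromosomes 3, 5, 6, 10 and 14 of GRCm38 in GENCODE M21. Gpnmb spans chr6:49036546-49070929 on the plus strand, Clec7a chr6:129461591-129472779 on the minus strand, Lyz2 chr10:117277331-117282321 on the minus strand, Spp1 chr5:104435118-104441050 on the plus strand and Igf1 chr10:87858265-87937042 on the plus strand. The other spans are chr6:125460266-125494791 (minus strand) for Cd9, chr10:128900989-128912822 (plus strand) for Cd63, chr14:47367751-47386160 (plus strand) for Lgals3 and chr3:10012548-10016607 (plus strand) for Fabp5. Promoters of 8 members were found in the RefSeq table for GRCm38.p6, all except Fabp5. The 250 bases before the RefSeq start are shown for the 4 genes with the largest fitted changes between APP/PS1 and WT and for Igf1, which had the smallest, so that their sequences can be set against each other. The pattern TGANTCA, in which N is any base, is looser than the AP-1 site, so a match is not by itself an AP-1 site. Capitals mark GAGGAA, a core of ETS sites such as those of the macrophage factor PU.1, and TGANTCA, each searched on both strands:
Gpnmb chr6:49036268-49036517, plus strand: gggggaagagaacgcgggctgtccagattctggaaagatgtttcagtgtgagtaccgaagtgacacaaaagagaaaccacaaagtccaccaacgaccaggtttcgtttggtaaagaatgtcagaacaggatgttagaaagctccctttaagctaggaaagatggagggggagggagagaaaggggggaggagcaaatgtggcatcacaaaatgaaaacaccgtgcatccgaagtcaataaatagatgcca
Lyz2 chr10:117282273-117282522, minus strand: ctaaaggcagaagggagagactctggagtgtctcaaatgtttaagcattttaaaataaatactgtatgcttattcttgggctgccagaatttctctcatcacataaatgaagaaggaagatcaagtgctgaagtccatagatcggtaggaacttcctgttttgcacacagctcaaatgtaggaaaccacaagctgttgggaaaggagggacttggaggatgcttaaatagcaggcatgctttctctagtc
Spp1 chr5:104434861-104435110, plus strand: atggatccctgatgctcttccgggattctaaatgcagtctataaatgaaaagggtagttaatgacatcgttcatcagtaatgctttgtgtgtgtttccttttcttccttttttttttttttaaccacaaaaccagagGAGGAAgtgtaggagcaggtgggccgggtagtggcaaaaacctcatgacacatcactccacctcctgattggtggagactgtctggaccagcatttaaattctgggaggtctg
Clec7a chr6:129472780-129473029, minus strand: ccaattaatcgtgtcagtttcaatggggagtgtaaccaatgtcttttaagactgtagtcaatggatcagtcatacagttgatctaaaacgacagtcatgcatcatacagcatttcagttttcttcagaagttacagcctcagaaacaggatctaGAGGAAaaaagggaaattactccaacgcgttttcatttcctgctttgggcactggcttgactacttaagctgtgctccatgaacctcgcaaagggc
Igf1 chr10:87860861-87861110, plus strand: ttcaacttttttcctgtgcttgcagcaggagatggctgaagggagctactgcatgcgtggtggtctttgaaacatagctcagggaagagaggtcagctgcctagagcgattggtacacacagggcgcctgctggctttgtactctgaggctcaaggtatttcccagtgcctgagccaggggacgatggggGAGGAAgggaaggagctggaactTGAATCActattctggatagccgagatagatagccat

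GAGGAA was present in 4 of the 8 promoters, at 113 bases before the start in Spp1, 96 in Clec7a and 60 in Igf1, and at 244 and 59 bases in Cd63. It is a common run of letters, found in 23.1% of all 27025 promoters of this length. TGANTCA was present in Igf1, as TGAATCA, at 37 bases before the start and in no other of the 8, against 6.87% of all promoters. CACGTG, an E-box bound by factors of the MiT/TFE family, was in none of the 8, against 6.05% of all promoters. Igf1 thus shared GAGGAA with Spp1 and Clec7a, while the promoters of Gpnmb and Lyz2 held none of the 3 motifs in this window.

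Several facts of the libraries touch all results. The total count was 8805804 to 19432075 per library. Xist, a transcript of the inactive X chromosome of females, was read 33 to 37 times per WT library and 5253 to 11188 times per APP/PS1 library, and it had 7024, 8848 and 29 reads in APP/PS1+N-AS replicates 1, 2 and 3, although the study states that the mice were male. The summed level of 4 Y-linked genes was 177 to 197 CPM in WT and 0.619 to 57.0 CPM over the APP/PS1 libraries, and it was 31.0, 45.8 and 176 CPM in the N-AS replicates, so sex-linked transcripts and genotype cannot be told apart between APP/PS1 and WT. All 12 general markers of microglia and macrophages, such as Csf1r and C1qa, were measured in every library, and their summed level ranged from 751 to 1084 CPM for WT, from 2855 to 4010 for APP/PS1 and from 1593 to 2404 for APP/PS1+N-AS. Markers of oligodendrocytes (1875 to 6722 CPM), astrocytes (2238 to 3953 CPM) and neurons (1457 to 4899 CPM) were abundant as well, and each of their marker genes was detected in every library. The counts therefore describe a cell fraction enriched for microglia to an unknown degree, and in such bulk RNA fewer cells of a type cannot be told apart from less RNA per cell. The plot of sex-linked transcripts and markers shows these values for each library.

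**Figure D1:**
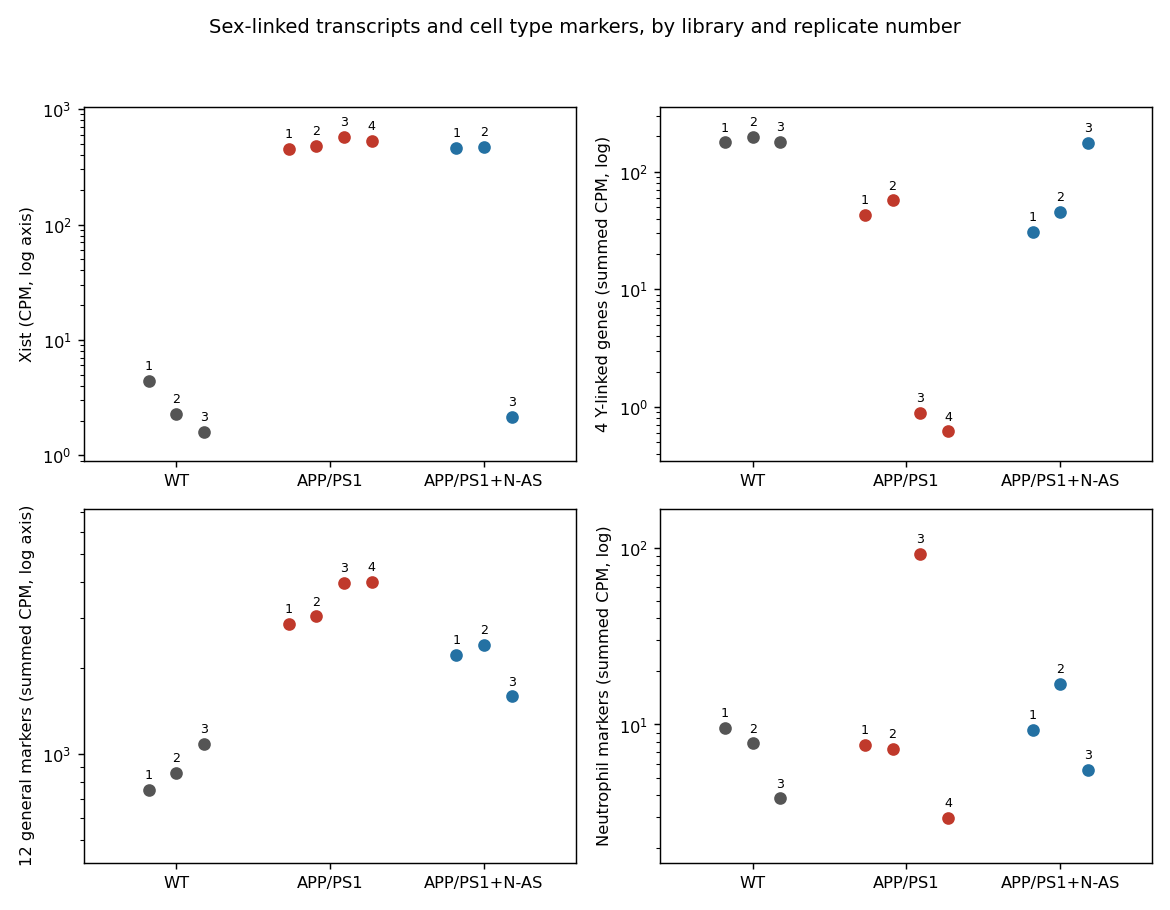
Level of Xist, summed level of 4 Y-linked genes, of 12 general microglia and macrophage markers and of neutrophil markers (CPM, log axes) in each library, with the replicate number beside each point. Xist is at 453 to 579 CPM in APP/PS1 and in APP/PS1+N-AS replicates 1 and 2 and at 1.59 to 4.40 CPM in the other 4 libraries, while the general markers are at 2855 CPM or more in APP/PS1 and at 1084 CPM or less in WT.

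The first comparison asked how the 9 genes differ between APP/PS1 and WT microglia. All 9 had a fitted change above 0, as did 41.2% of all genes, and 7 of them rose at an adjusted p under 0.05: Gpnmb, Lyz2, Spp1, Clec7a, Lgals3, Cd63 and Cd9 (edgeR quasi-likelihood fit of the 3 groups). Over all genes tested, 2.67% rose in this way. Fabp5 and Igf1 did not pass. In 8 of the 9 genes every APP/PS1 library lay above every WT library, which was the case for 8.15% of all genes, and Igf1 was the exception. The median log2 fold change was 2.22 for the 9 genes and −0.07 for all genes tested.

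Among the secreted proteins, Lyz2 had the lowest adjusted p of the 9. Its level was 16.9, 17.2 and 13.6 CPM in WT replicates 1 to 3, and 103, 102, 173 and 161 CPM in APP/PS1 replicates 1 to 4. The groups were far apart, with means of 15.9 ± 1.98 CPM (SD, n = 3) for WT and 135 ± 37.5 CPM (SD, n = 4) for APP/PS1. The log2 fold change was 3.09 (standard error 0.29, edgeR adjusted p = 0.000483), an 8.51-fold higher level. Lyz2 is also expressed by neutrophils, and the replicate with the highest Lyz2, APP/PS1 replicate 3, had 93.2 CPM of summed neutrophil markers against 2.95 to 7.68 CPM in the other APP/PS1 libraries. Without that library the log2 fold change of Lyz2 was 2.96 (edgeR adjusted p = 0.00171). Reads of Lyz2 may also be shared with its near copy Lyz1, which lies 5475 bases away; Lyz1 itself rose by 2.92 on the log2 scale (edgeR adjusted p = 0.000773), from 2.26 to 17.0 mean CPM.

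Spp1 was at 21.9, 23.8 and 12.1 CPM in WT and at 113, 117, 92.8 and 219 CPM in APP/PS1 replicates 1 to 4. The lowest APP/PS1 library was several times the highest WT library, and replicate 4 stood well above the other 3. The log2 fold change was 2.82 (standard error 0.33, edgeR adjusted p = 0.00140), or 7.08-fold. In the annotation Spp1 overlaps the unnamed transcript Gm42793 on the same strand, and the assignment of reads to either one is uncertain.

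Igf1 was the member with the most reads in WT and behaved unlike Spp1 and Lyz2. It was at 150, 88.8 and 82.8 CPM in WT and at 113, 108, 117 and 147 CPM in APP/PS1. The highest value of all 10 libraries was a WT library, replicate 1, and the groups overlapped. The log2 fold change was 0.18 with a standard error of 0.21 (edgeR adjusted p = 0.723). Its sign was not stable, since it was −0.084 with the level of Y-linked genes as a covariate and −0.14 in a fit of library numbers 1 to 6 alone. Igf1 overlaps the antisense gene Igf1os, and the strand setting of the counting is not given in the sources used here, so reads of the pair may be mixed.

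Lgals3 had few reads in every group. It had 7, 14 and 14 reads in the WT libraries and 35, 16, 66 and 121 reads in the APP/PS1 libraries, that is 0.832, 0.867 and 0.675 CPM against 3.02, 1.32, 4.51 and 5.76 CPM. The groups did not overlap, but APP/PS1 replicate 2 was close to WT. The log2 fold change of 2.22 (standard error 0.52, edgeR adjusted p = 0.0448) lay near the threshold, and of the 10 fits made with 1 library left out it passed in 3, those without APP/PS1 replicate 2 and without APP/PS1+N-AS replicate 2 or 3. In the fits without WT replicate 1, 2 or 3, APP/PS1 replicate 1, 3 or 4, or APP/PS1+N-AS replicate 1 its log2 fold change was 1.92 to 2.31 and its edgeR adjusted p 0.0647 to 0.118. It did not pass with total counts in place of TMM, and limma-voom gave an adjusted p of 0.128.

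Gpnmb, a membrane glycoprotein, had the largest log2 fold change of the 9 genes. It was at 6.18, 0.619 and 1.11 CPM in WT (52, 10 and 23 reads) and at 37.9, 42.6, 50.5 and 143 CPM in APP/PS1. Reads were few in WT replicates 2 and 3, and every APP/PS1 library lay above every WT library, with replicate 4 highest by far. The log2 fold change of 4.94 (standard error 0.78, edgeR adjusted p = 0.00679) had the widest error of the 9. It was 6.27 without WT replicate 1 and 4.27 without APP/PS1 replicate 4, and it passed the threshold in all 10 fits that left out 1 library. Clec7a was at 13.8, 7.49 and 5.55 CPM in WT and at 46.8, 43.8, 52.5 and 64.1 CPM in APP/PS1, with narrow spread in APP/PS1. Its log2 fold change was 2.57 (standard error 0.33, edgeR adjusted p = 0.00244).

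Both tetraspanins rose by less. Cd9 was at 47.2, 58.6 and 35.0 CPM in WT and at 107, 116, 142 and 148 CPM in APP/PS1, and its log2 fold change was 1.45 (standard error 0.24, edgeR adjusted p = 0.00853). Cd63 was at 30.8, 27.6 and 17.8 CPM in WT and at 57.8, 66.5, 84.1 and 92.4 CPM in APP/PS1, where the log2 fold change was 1.57 (standard error 0.24, edgeR adjusted p = 0.00538). Both were already well expressed in WT libraries, and Cd9 overlaps antisense transcripts whose reads may be mixed with its own. For the lipid carrier Fabp5 the values were 22.9, 24.0 and 37.5 CPM in WT and 37.6, 42.1, 48.9 and 55.2 CPM in APP/PS1. WT replicate 3 and APP/PS1 replicate 1 nearly met, and the log2 fold change of 0.70 (standard error 0.22, edgeR adjusted p = 0.117) did not pass. It did pass in DESeq2, at 0.71 (adjusted p = 0.0439), and without WT replicate 3, at 0.98 (edgeR adjusted p = 0.0224); WT replicate 3 also had the most neuronal markers, 4899 CPM against 1457 and 1713 CPM in the other WT libraries, whose part in this result was not tested.

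**Figure D2:**
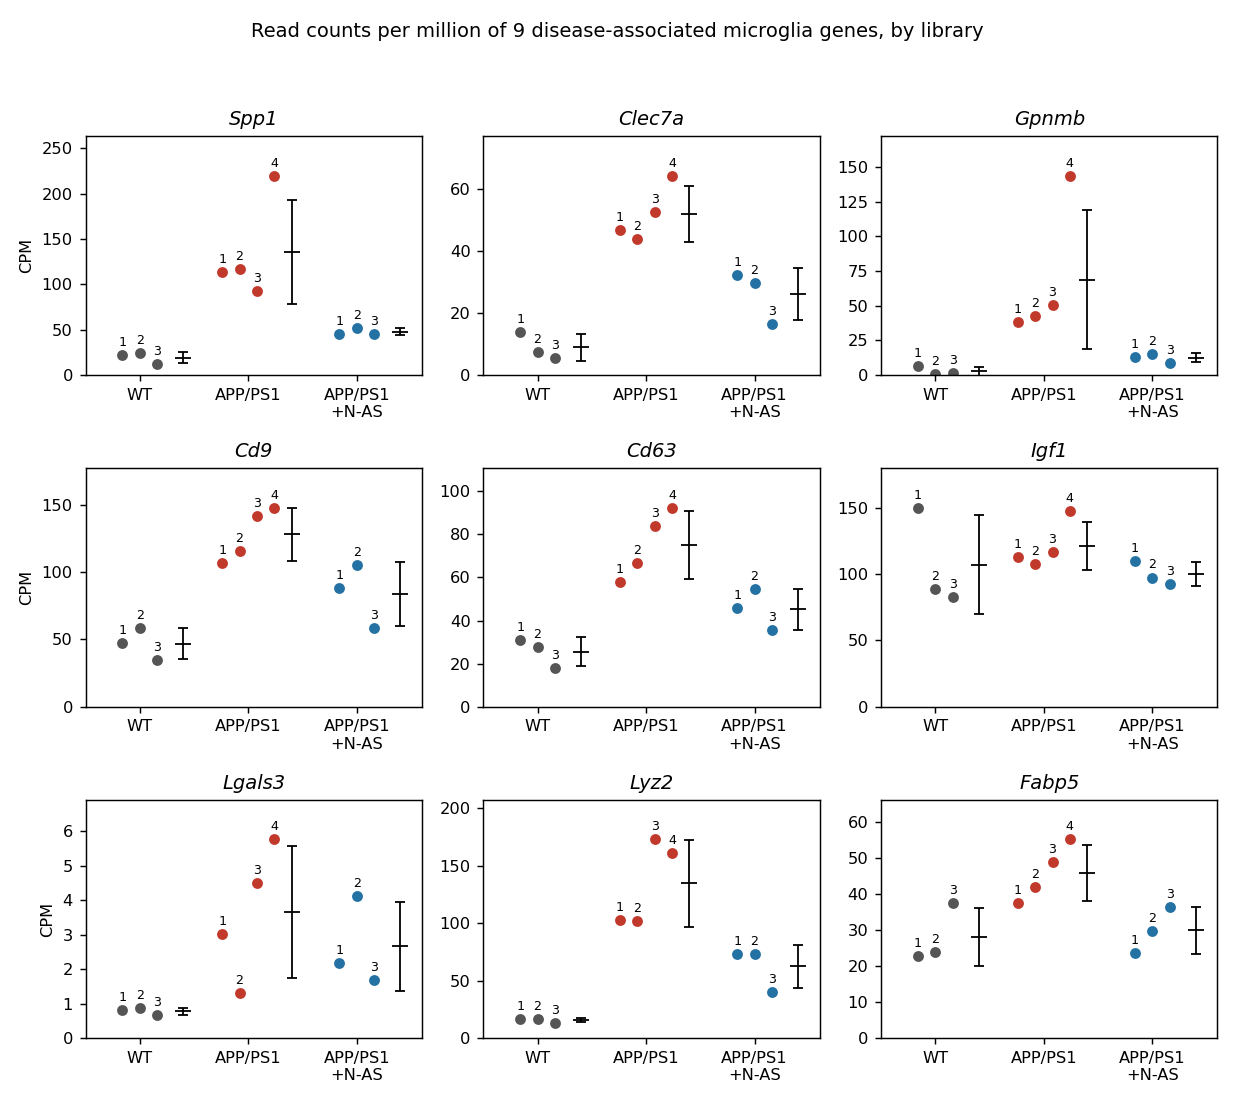
Level of each gene (CPM, linear axis from 0) in every WT, APP/PS1 and APP/PS1+N-AS library; points carry the replicate number, and the bar beside each group is the mean ± SD. In 8 of the 9 genes all APP/PS1 points lie above all WT points, Igf1 being the exception, and APP/PS1 replicate 4 has the highest value of its group in all but Lyz2.

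The order of the genes differed between the groups when levels were divided by the summed exon length (CPM per kilobase). In WT, Cd9 was highest at 22.9 ± 5.77 (SD, n = 3), followed by Lyz2 at 12.1 ± 1.50, Spp1 at 11.7 ± 3.80 and Igf1 at 10.8 ± 3.76; the last 3 lay within each other's spread. Fabp5 (7.89 ± 2.28), Cd63 (6.90 ± 1.83) and Clec7a (3.39 ± 1.63) followed, and Lgals3 (0.426 ± 0.0550) and Gpnmb (0.405 ± 0.473) were lowest and not apart. In APP/PS1, Lyz2 was highest at 102 ± 28.5 (SD, n = 4), followed by Spp1 at 82.3 ± 34.5 and Cd9 at 62.7 ± 9.76, the first pair again within their spread. Cd63 and Clec7a were at 20.4 ± 4.29 and 19.6 ± 3.40, Fabp5, Igf1 and Gpnmb had means of 12.9, 12.2 and 10.5 within the SD of Gpnmb (7.70), and Lgals3 was lowest at 1.97 ± 1.03. In APP/PS1+N-AS the order was Lyz2 (47.5 ± 14.5, SD, n = 3), Cd9 (41.0 ± 11.6), Spp1 (29.0 ± 2.38), Cd63 (12.3 ± 2.56), Igf1 (10.1 ± 0.908), Clec7a (9.86 ± 3.19), Fabp5 (8.40 ± 1.81), Gpnmb (1.92 ± 0.506) and Lgals3 (1.44 ± 0.695), in which the libraries of Lyz2, Cd9 and Spp1 overlapped in range, as did those of Cd63, Igf1, Clec7a and Fabp5, and Gpnmb and Lgals3. Igf1 made up 35.7 to 48.3% of the summed CPM of the 9 genes in the WT libraries and 14.2 to 18.3% in the APP/PS1 libraries. The share of Lyz2 was 5.43 to 6.89% in WT and 15.5 to 22.6% in APP/PS1.

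The general microglia and macrophage markers moved in the same direction as the 9 genes. All 12 rose in APP/PS1, with a median log2 fold change of 1.97. Of 8 homeostatic microglia genes 4 rose and 0 fell, with a median of 0.94. Of 10 oligodendrocyte markers 3 fell and 0 rose, and of 8 astrocyte markers 2 rose, Gfap by 5.65 on the log2 scale (edgeR adjusted p = 0.000545) and S100b by 1.21. In edgeR 0 of 4 neutrophil, 0 of 8 border macrophage and 0 of 6 monocyte markers were called, with 0, 0 and 1 at an unadjusted p under 0.05, and DESeq2 and limma-voom called 0 of them as well. The neutrophil markers had a median log2 fold change of 2.15, with APP/PS1 replicate 3 far above the other libraries. The part of these other cells in the results on the 9 genes was not tested. To set the 9 genes beside the general markers, the mean log2 CPM of the 12 general markers was subtracted in each library. The APP/PS1 minus WT difference was then 3.14 for Gpnmb, 1.16 for Lyz2, 0.90 for Spp1 and 0.72 for Clec7a, and it was −0.02 for Lgals3, −0.31 for Cd63, −0.42 for Cd9, −1.16 for Fabp5 and −1.66 for Igf1. The libraries of the 2 groups did not overlap on this relative scale for Gpnmb and Lyz2, which were higher in APP/PS1. They also did not overlap for Fabp5 and Igf1, which were lower. For the other 5 genes the libraries overlapped. The share of all genes without overlap on this scale was not computed. The mean of the 12 markers rose by 1.88, while the median log2 fold change of all genes tested was −0.07. A gene without change would therefore also lie lower on this scale. With the mean of the 8 homeostatic genes subtracted instead, the difference was 4.09 for Gpnmb, 2.11 for Lyz2, 1.85 for Spp1 and 1.67 for Clec7a. It was 0.93 for Lgals3, 0.64 for Cd63, 0.53 for Cd9, −0.20 for Fabp5 and −0.71 for Igf1. The sign for Lgals3, Cd63 and Cd9 thus depended on the reference, whose own mean rose by 1.88 (general) or 0.93 (homeostatic). The relative values are a description without a test, and the level of the markers in each cell is not known.

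**Figure D3:**
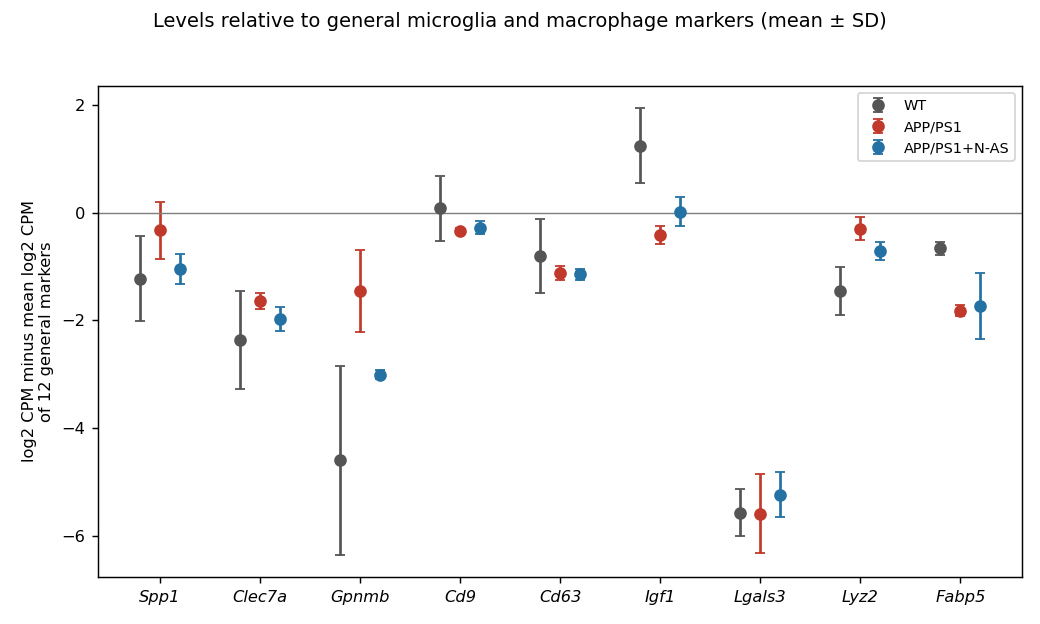
Log2 CPM of each gene minus the mean log2 CPM of 12 general microglia and macrophage markers, as mean ± SD of the libraries of a group (3 WT, 4 APP/PS1, 3 APP/PS1+N-AS). Gpnmb and Lyz2 lie higher in APP/PS1 than in WT, Igf1 and Fabp5 lie lower, and Cd9, Cd63 and Lgals3 differ by less than their spread. The mean of the 12 markers itself was 1.88 higher in APP/PS1 than in WT, so a gene without change would lie lower.

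The sets of library numbers gave a like picture with other sizes. The libraries numbered 1 to 6 are replicates 1 and 2 of all groups, and those numbered 7 to 10 are 1 WT, 2 APP/PS1 and 1 N-AS library. The APP/PS1 minus WT difference in log2 CPM was 2.58 and 3.60 for Lyz2 in the sets 1 to 6 and 7 to 10, 2.33 and 3.54 for Spp1, 4.21 and 6.10 for Gpnmb, 2.14 and 3.36 for Clec7a, 1.08 and 2.05 for Cd9, and 1.09 and 2.30 for Cd63. For Lgals3 it was 1.13 and 2.70, for Fabp5 0.76 and 0.47, and for Igf1 −0.07 and 0.66. A fit of library numbers 1 to 6 alone, chosen after the data were seen, called 7 of the 9 genes, with Fabp5 past the threshold and Lgals3 not. All 7 were higher, beside 881 genes called in all by that fit, 453 higher and 428 lower. With the mean log2 level of the Y-linked genes as a covariate, which follows the groups closely, 2 of the 9 genes passed, Spp1 at 2.43 (edgeR adjusted p = 0.0471) and Lyz2 at 2.34 (edgeR adjusted p = 0.00542), beside 63 genes in all.

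The second comparison asked how N-AS treatment of APP/PS1 mice changed these genes. All 9 had a fitted change below 0, as did 51.4% of all genes, but 0 of the 9 and 0 of all 18727 genes (0%) passed the adjustment in edgeR (lowest adjusted p 0.405), so none is called changed. At an unadjusted p under 0.05, 7 of the 9 were lower, against 4.05% of all genes, and for 7 of the 9 every N-AS library lay below every APP/PS1 library, against 6.46% of all genes. Igf1 and Lgals3 were the members outside both counts. DESeq2 called 79 genes, among them Spp1 and Lyz2 as lower, and limma-voom called 0 genes. The median log2 fold change was −0.73 for the 9 genes and −0.01 for all genes.

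Spp1 had the lowest unadjusted p of the 9. It was at 45.5, 52.3 and 45.4 CPM in APP/PS1+N-AS replicates 1 to 3, a narrow range below the lowest APP/PS1 library at 92.8 CPM. The log2 fold change was −1.51 (standard error 0.31, edgeR adjusted p = 0.478), a fitted level of 35.2% of that in APP/PS1. In DESeq2 the log2 fold change of −1.52 passed (adjusted p = 0.00151), and within library numbers 1 to 6, in a fit chosen after the data were seen, it was −1.24 (edgeR adjusted p = 0.0295).

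The other secreted proteins differed from each other. Lyz2 was at 73.7, 73.4 and 40.6 CPM with N-AS, all below the APP/PS1 libraries, and its log2 fold change was −1.11 (standard error 0.26, edgeR adjusted p = 0.478; DESeq2 adjusted p = 0.0149). Igf1 was at 110, 97.5 and 92.9 CPM, inside the range of WT and reaching that of APP/PS1, with a log2 fold change of −0.28 (standard error 0.21, edgeR adjusted p = 0.737). Lgals3 was at 2.17, 4.14 and 1.70 CPM from 33, 78 and 23 reads, with a log2 fold change of −0.45 (standard error 0.47, edgeR adjusted p = 0.816). Its direction depended on the libraries, since the difference was 0.55 within numbers 1 to 6 and −1.51 within 7 to 10, and 0.42 with the Y-linked covariate.

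Gpnmb had the largest difference of the 9. It was at 13.2, 15.3 and 8.87 CPM with N-AS, against 37.9 CPM or more in APP/PS1, which gave −2.46 as the log2 fold change (standard error 0.65, edgeR adjusted p = 0.494). Without APP/PS1 replicate 4 it was −1.81. Clec7a was at 32.1, 29.5 and 16.4 CPM with N-AS, with a log2 fold change of −0.99 (standard error 0.30, edgeR adjusted p = 0.494). Replicate 3 was the lowest N-AS library for both genes. It was also the N-AS library with Xist at 29 reads and with the fewest general microglia markers, 1593 against 2229 and 2404 CPM.

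For the tetraspanins and Fabp5 the differences were smaller. Cd9 was at 88.3, 105 and 58.2 CPM with N-AS (log2 fold change −0.61, standard error 0.23, edgeR adjusted p = 0.517), and its replicate 2 nearly reached the lowest APP/PS1 library at 107 CPM. Cd63 was at 45.7, 54.4 and 35.6 CPM (log2 fold change −0.73, standard error 0.23, edgeR adjusted p = 0.494). Fabp5 was at 23.7, 29.7 and 36.6 CPM (log2 fold change −0.62, standard error 0.22, edgeR adjusted p = 0.509), and here replicate 3 was the highest N-AS library, just under the lowest APP/PS1 library at 37.6 CPM.

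**Figure D4:**
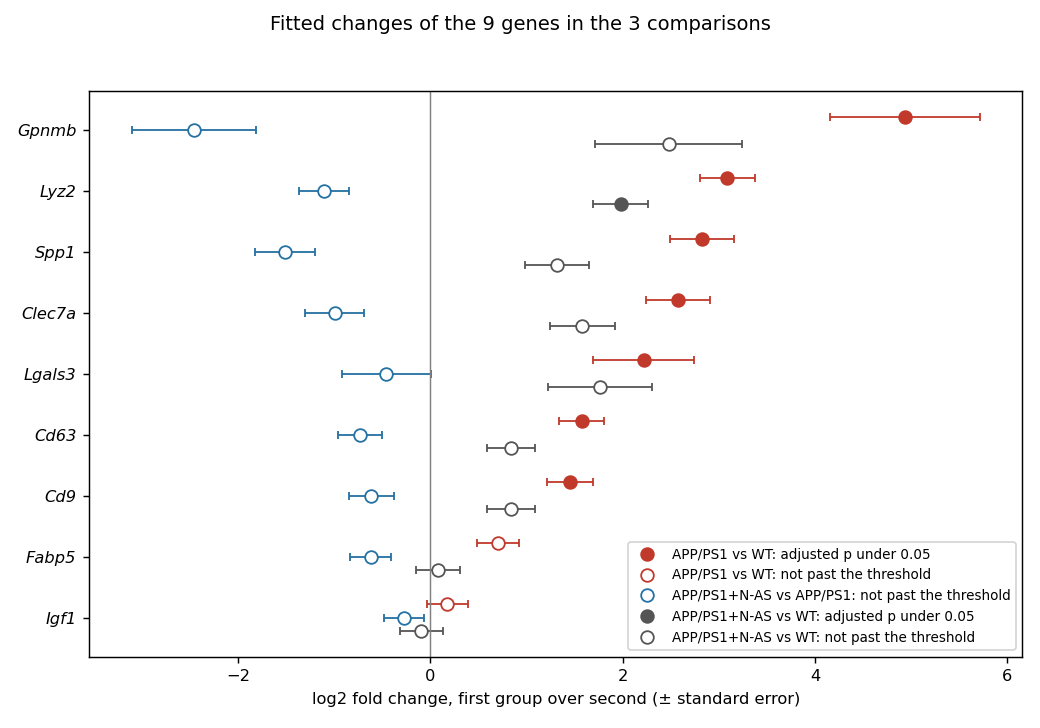
Log2 fold change (± standard error, edgeR) of the 9 genes in the 3 comparisons, first group over second; filled points passed an adjusted p under 0.05. In APP/PS1 vs WT 7 of the 9 points are filled, in APP/PS1+N-AS vs APP/PS1 0 are filled although all lie below 0, and in APP/PS1+N-AS vs WT 1 is filled (Lyz2).

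The general microglia markers were also lower with N-AS. For all 12 each N-AS library lay below each APP/PS1 library, with a median log2 fold change of −0.71; edgeR called 0 of them (11 at an unadjusted p under 0.05), limma-voom 0 and DESeq2 1. Relative to these markers, the APP/PS1+N-AS minus APP/PS1 difference was −1.55 for Gpnmb, −0.72 for Spp1, −0.41 for Lyz2 and −0.33 for Clec7a, and it was between −0.03 and 0.35 for Cd63, Cd9, Fabp5 and Lgals3 and 0.44 for Igf1. The libraries did not overlap on this scale for Gpnmb and Lyz2, which were lower with N-AS, and for Igf1, which was higher. The share of all genes without overlap on this scale was not computed. The mean of the 12 markers itself changed by −0.70, against a median of −0.01 for all genes. A gene without change would therefore also lie higher on this scale, and the fitted change of Igf1 itself was −0.28. With the homeostatic microglia genes as reference instead, the difference was −1.84 for Gpnmb, −1.01 for Spp1, −0.70 for Lyz2 and −0.62 for Clec7a. It was −0.31 for Cd63, −0.22 for Cd9, −0.21 for Fabp5, 0.06 for Lgals3 and 0.15 for Igf1. The mean of the homeostatic genes itself changed by −0.42 with N-AS, so a gene without change would lie above 0 here. Within library numbers 1 to 6 the differences of the 9 genes on the unadjusted log2 scale ran from −1.49 to 0.55, 8 of them negative, and within 7 to 10 from −3.24 to −0.50, all negative. Within 1 to 6, where the libraries of the 2 groups have like levels of Xist and Y-linked genes, they were −1.24 for Spp1, −0.55 for Clec7a, −0.48 for Lyz2 and −0.21 for Cd9.

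The third comparison set N-AS-treated APP/PS1 microglia against WT; it shares its libraries with the other comparisons. Lyz2 alone was called, higher with a log2 fold change of 1.98 (standard error 0.29, edgeR adjusted p = 0.0238), while 0.176% of all genes were called higher. In 6 of the 9 genes every N-AS library lay above every WT library, against 4.90% of all genes. The Lyz2 call passed in 5 of 10 fits that left out 1 library. Without WT replicate 1, 2 or 3 or APP/PS1+N-AS replicate 1 or 2 the log2 fold change was 1.85 to 2.05 and the edgeR adjusted p 0.0514 to 0.144. The other log2 fold changes were 2.48 for Gpnmb, 1.77 for Lgals3, 1.58 for Clec7a, 1.32 for Spp1, 0.84 for both tetraspanins, 0.08 for Fabp5 and −0.10 for Igf1, with edgeR adjusted p from 0.150 to 0.984. Without APP/PS1+N-AS replicate 3, Clec7a passed as well, at 1.84 (edgeR adjusted p = 0.0344). Within library numbers 1 to 6, in a fit chosen after the data were seen, 5 of the 9 were called higher: Lyz2, Spp1, Clec7a, Cd9 and Cd63. That fit called 413 genes in all.

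Of 40 other disease-associated microglia genes, 30 rose and 0 fell in APP/PS1 vs WT, where 2.67% of all genes rose. Their median log2 fold change was 2.05 against −0.07 over all genes. With the Y-linked covariate 16 rose, beside 60 genes called higher in all. Cst7, which encodes the cysteine protease inhibitor cystatin F, ranged from 0.495 to 1.07 CPM in WT and from 72.7 to 133.5 CPM in APP/PS1, and its log2 fold change was 7.13 (standard error 0.41, edgeR adjusted p = 5.93e-05). Itgax, the integrin subunit CD11c, ranged from 1.01 to 4.28 CPM and from 61.2 to 134 CPM in the same groups, and its log2 fold change was 5.50 (standard error 0.53). At the other end, the elastase gene Mmp12 had a log2 fold change of −0.26 and the protease inhibitor gene Cstb one of 0.23, neither past the threshold. Between APP/PS1+N-AS and APP/PS1, 38 of the 40 had a fitted change below 0, as did 51.4% of all genes. Of the 40, 29 were lower at an unadjusted p under 0.05, against 4.05% of all genes, and 0 passed the adjustment in edgeR. DESeq2 called 12, all lower, beside 58 genes called lower in all. Cst7 was at 20.7 to 41.6 CPM with N-AS (log2 fold change −1.50, edgeR adjusted p = 0.450). Between APP/PS1+N-AS and WT, where 0.176% of all genes were called higher, 13 of the 40 were (edgeR), among them Cst7 at 5.63 and Itgax at 3.96. This count was 1 without WT replicate 2, 2 without APP/PS1+N-AS replicate 1 or 2, 4 without WT replicate 1 and 8 without APP/PS1 replicate 2.

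**Figure D5:**
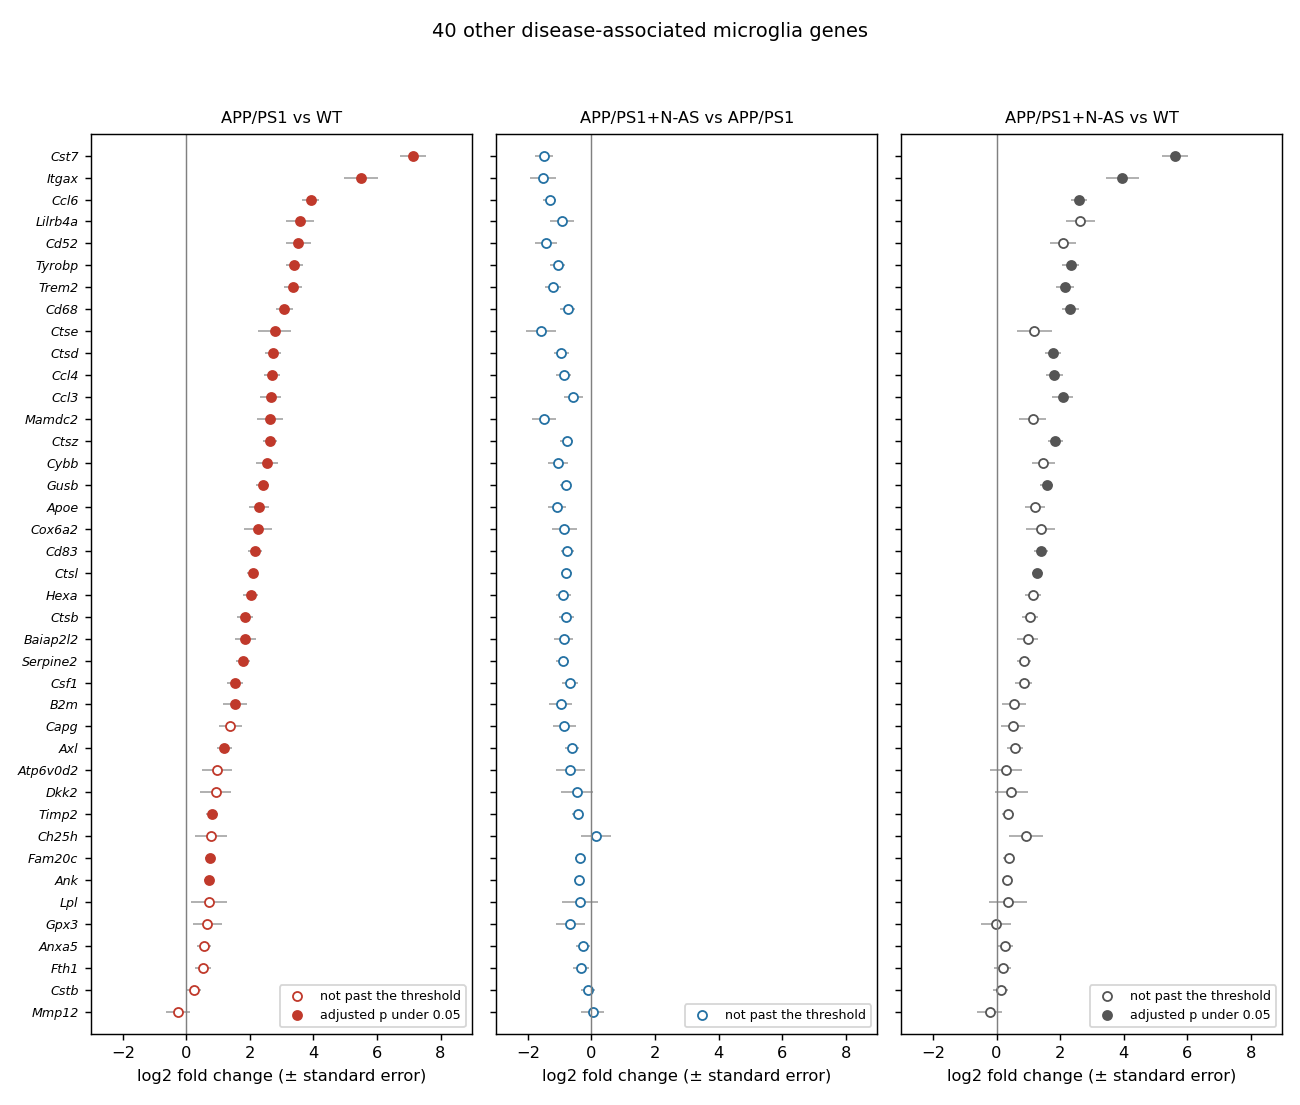
Log2 fold changes (± standard error, edgeR) of 40 other disease-associated microglia genes in the 3 comparisons, ordered by the first; filled points passed an adjusted p under 0.05. Filled points number 30, 0 and 13 in the panels from left to right, and 38 of the 40 lie below 0 in the middle panel.

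Partners and relatives of the 9 genes were taken in 7 lists. Of 9 osteopontin receptors, 1 rose in APP/PS1 vs WT, the integrin subunit Itgb5 (log2 fold change 1.62, edgeR adjusted p = 0.00153), and Cd44 was at 0.73 (edgeR adjusted p = 0.215). Of 7 tested genes of Clec7a signaling 1 rose, the phospholipase Plcg2 (0.94, edgeR adjusted p = 0.0135), while 5 had an unadjusted p under 0.05 and DESeq2 called 4 higher; the adaptor Card9 was at 1.08 (0.0569) and the kinase Syk at 0.83 (0.0786). Of 13 tested genes of the IGF system 0 were called in edgeR (1 at an unadjusted p under 0.05), 1 by DESeq2 and 0 by limma-voom, with log2 fold changes from −0.43 to 0.50. Of 15 tetraspanins and partners 2 rose, the leukocyte tetraspanins Cd37 (1.97, edgeR adjusted p = 0.00698) and Cd53 (1.64, edgeR adjusted p = 0.000554). Of 7 tested galectins and galectin-binding genes 2 rose, Lgals3bp (2.54, edgeR adjusted p = 0.00454) and Lgals9 (0.85, edgeR adjusted p = 0.0290), while Lgals1 was at 0.38. Of 4 lysozymes and fatty-acid binding proteins Lyz1 rose, and Fabp7, a carrier of astrocytes and their precursors, was at 1.18 (edgeR adjusted p = 0.262). Mitf, a factor of the MiT/TFE family that drives Gpnmb in pigment cells and macrophages, was 1 of 4 tested genes of its list to rise (0.76, edgeR adjusted p = 0.0254). Of the 59 tested genes of these 7 lists, edgeR called 8 in APP/PS1 vs WT, all higher, beside 2.67% of all genes. DESeq2 called 14 higher and 1 lower, beside 870 and 492 of all genes. For limma-voom 8 were higher, beside 497 of all genes. In APP/PS1+N-AS vs APP/PS1 edgeR called 0 of the 59. At an unadjusted p under 0.05, 8 were lower, against 4.05% of all genes, and 2 were higher. DESeq2 called 2, beside 79 of all genes, and limma-voom 0. In APP/PS1+N-AS vs WT edgeR called 0 of the 59, with 9 higher at an unadjusted p under 0.05. DESeq2 called 5, beside 187 of all genes, and limma-voom 0.

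The members also differed in how they moved from library to library. Over the 10 libraries, which share the 3 groups, the median Pearson r of log2 CPM with the other 8 was 0.90 to 0.94 for Spp1, Clec7a, Gpnmb, Cd9, Cd63 and Lyz2, 0.83 for Lgals3, 0.57 for Fabp5 and 0.46 for Igf1. After group means were removed it was −0.23 for Fabp5 and 0.45 to 0.69 for the others. The genes outside the 9 with the highest r to their mean standardized log2 CPM over the 10 libraries were Mamdc2 (0.989), the ribosomal protein gene Rpl12, the NADPH oxidase subunit Cybb, the cholesterol transfer protein Npc2, Rps28, Rpl10, the metal transporter Slc11a1, the chemokine receptor Cxcr4, Apoe and the membrane protease St14 (0.972). Mamdc2, a proteoglycan gene, was at 4.71, 28.4 and 10.1 mean CPM in WT, APP/PS1 and APP/PS1+N-AS, and Apoe, the main apolipoprotein of the brain, at 654.5, 3209 and 1513 CPM. These r values rest on the group differences and are given as a description.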

How the data were processed

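RNA was sequenced from microglia fractions of 10 pools of cortex. Per the labels and the study's methods, the authors depleted ribosomal RNA, prepared stranded libraries, aligned paired reads to mm10 with TopHat and counted them per gene with bedtools and Bioconductor; the versions, the annotation and the strand setting are not given in the sources used here, and edgeR is named in the submitters' processing notes without a role. The deposited values are raw counts, without normalization. Lines that shared a symbol (103 lines, 43 symbols) were summed.

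The members and all gene lists were chosen with earlier results of these data known, and genes named from a list were those with the highest and lowest change in APP/PS1 vs WT, or any gene of a short list. Genes were filtered with filterByExpr and scaled by TMM, and 18727 were fitted in edgeR 4.0.16 (R 4.3.3) by the quasi-likelihood method in 1 model of 3 groups, with Benjamini-Hochberg adjustment over all of them and a threshold of 0.05. The standard error is the absolute log2 fold change over the root of F. A prior count of 2 was used for log2 CPM. The fits were also run on simulated counts with the same dispersion for all genes. Those counts held no sex-linked or library-set differences, so the run does not bear on the effect of such differences here. Alternatives were DESeq2 1.42.0, limma 3.58.1 (voom with quantile normalization), total counts, a looser filter, 2 groups only, a replicate block, a Y-linked covariate and each library left out; library numbers 1 to 6 alone, values relative to markers and values within library sets were added after the data were seen. Counts of replicates differed by 12.7 to 127 times sampling noise (chi-square per degree of freedom), and p-values measure the spread between pools. Total counts were 8805804 to 19432075 per library, and reads without molecular identifiers make counting error alone too small.

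Replicate numbers come from the labels, which do not say what they share. After removal of group means, same-numbered APP/PS1+N-AS and APP/PS1 libraries correlated with r of 0.278, 0.142 and 0.309. They were treated as paired only in the alternative fit with a replicate block. The main fit, which gave the changes and p-values printed for the members, took no pairing into account. The r values were −0.486, 0.441 and −0.010 for APP/PS1 and WT and −0.136, 0.348 and 0.240 for APP/PS1+N-AS and WT. Coordinates and lengths are from GENCODE M21 and promoters from RefSeq, both for GRCm38, the build that mm10 names.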

Additional observations from a re-analysis of the deposited data

Results flagged for a closer look

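Gpnmb in APP/PS1 replicate 4, at 143 CPM (3012 reads), stood far from the other APP/PS1 libraries, the next highest being 50.5 CPM; its gap to that library was 0.881 of the range of the group. The check was made for each of the 9 genes in the same 4 APP/PS1 libraries, and 1 of the 9 stood out. Chance gives about 1 in 20 for a single check if the values are normally distributed. The check used CPM rather than log2 CPM, and their distribution was not tested. The 9 checks share their libraries and are not independent, so that rate does not apply to them as a set. For Spp1 the same library, at 219 CPM, had a gap of 0.811 of the range.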

How the results depend on the processing

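For all genes, 649 were called in APP/PS1 vs WT, 1362 by DESeq2, 406 with only the 2 groups fitted, 326 with the replicate block and 63 with the Y-linked covariate; leaving out 1 library gave 287 (without APP/PS1 replicate 4) to 944 (without WT replicate 3). In that comparison 7 of the 9 genes were called, 8 by DESeq2 (Fabp5 in addition), 6 by limma-voom, 2 with the Y-linked covariate, and 6 to 7 with 1 library left out. In APP/PS1+N-AS vs APP/PS1 0 genes were called, 79 by DESeq2 and 11 in library numbers 1 to 6; of the 9 genes 0 were called, 2 by DESeq2 and 1 in numbers 1 to 6, and 0 in each fit that left out 1 library. The paired fit with the replicate block called 0 genes as well (1472 with an unadjusted p under 0.05 against 1653) and changed no call of a member there. In APP/PS1+N-AS vs WT 35 genes were called, 187 by DESeq2, 20 by limma-voom, 2 with only the 2 groups fitted, 5 with the replicate block, 22 with the Y-linked covariate, 1 with only N-AS replicate 3 against WT and 413 in numbers 1 to 6, with 1 (without WT replicate 2) to 108 (without APP/PS1+N-AS replicate 3) when 1 library was left out; of the 9 genes 1 was called, 3 by DESeq2, 0 with the 2 groups fitted, 0 with the block, 0 with only N-AS replicate 3 and 5 in numbers 1 to 6, and 0 to 2 with 1 library left out. The cause of these moves was not tested, beyond fewer libraries in the smaller fits. Outside the fit with the replicate block, the replicate numbers were not treated as paired in any comparison. Of the 10 libraries, 3 correlated best with a library of their own number.

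Signs turned for small differences. In APP/PS1 vs WT Igf1 was −0.084 with the Y-linked covariate and −0.14 in numbers 1 to 6; in APP/PS1+N-AS vs APP/PS1 Lgals3 was 0.42 with that covariate and 0.54 in numbers 1 to 6; in APP/PS1+N-AS vs WT Igf1 was −0.24 to 0.22 with 1 library left out (0.22 without WT replicate 1), and Fabp5 was −0.063 to 0.35 (−0.039 without WT replicate 1, −0.023 without WT replicate 2 and −0.063 without APP/PS1+N-AS replicate 3). Depth limits Lgals3 in all groups (7 to 121 reads) and Gpnmb in WT (10 to 52 reads).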
